A study of Mus musculus with 18 samples.

Results

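The transcripts described here are those of 9 chemokine genes other than the CXCR3 ligands, namely Cxcl1, Cxcl2, Cxcl3, Cxcl5, Cxcl16, Cx3cl1, Ccl2, Ccl7 and Ccl20. They were chosen by name, as the rows of the count table whose mouse Ensembl identifiers belong to these symbols, and are 9 of 43629 genes in the table. Counts came from 3′ mRNA sequencing of AT3 cells, a mouse mammary carcinoma line that the study used as a model of triple-negative breast cancer. Cells were given DMSO as vehicle, A-241 at 250 nM or A-485 at 1000 nM for 1 h, and then IFNγ at 1 ng/mL or its vehicle for a further 2 h, so that all groups shared 3 h of treatment. This gave 6 conditions (DMSO, IFNγ, A-241, A-241+IFNγ, A-485 and A-485+IFNγ) of 3 libraries each, all from a single unmodified cell line. A-241 and A-485 both inhibit the catalytic lysine acetyltransferase activity of the co-activators P300 and CBP, and the study asked which IFNγ-dependent and steady-state transcripts need that activity. The study's methods describe the cultures as technical triplicates and the labels as biological ones, so p values measure the spread between these libraries, which may be technical.

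Chemokines are small secreted proteins that draw cells along a gradient, and tumour cells that release them shape which leukocytes enter. Cxcl1, Cxcl2, Cxcl3 and Cxcl5 carry a Glu-Leu-Arg motif ahead of their first cysteines and attract neutrophils and related myeloid cells through the receptor CXCR2. Ccl2 and Ccl7 attract monocytes through CCR2, and Ccl20 attracts CCR6-bearing cells such as dendritic cells and Th17 cells. Cx3cl1 and Cxcl16 are made as membrane-anchored proteins on a mucin stalk, bind CX3CR1 and CXCR6, and are freed by ADAM proteases. NF-κB is a well-known activator of the CXCR2 ligands and of Ccl2, whereas IRF1 is a transcription factor of the IFNγ response.

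In GRCm38 the CXCR2 ligands lie in a row on chromosome 5. Cxcl5 (chr5:90759360-90761624) was 24.5 kb from Cxcl3 (chr5:90786103-90789600), which was 102 kb from Cxcl1 (chr5:90891241-90893115), and Cxcl1 was 10.8 kb from Cxcl2 (chr5:90903871-90905938). Ccl2 (chr11:82035571-82037453) and Ccl7 (chr11:82045712-82047525) were 8.26 kb apart on chromosome 11. Cxcl16 (chr11:70453983-70459984, minus strand), Cx3cl1 (chr8:94772009-94782427) and Ccl20 (chr1:83116766-83119167) stood alone. RefSeq promoters of build GRCm38.p6 were at hand for 5 of the 9 genes. Those of Cxcl5, Cxcl16, Ccl2 and Ccl7 were not at hand and were not searched. Those of 3 CXCR2 ligands are shown because the longest run of bases common to them before the start, the 11 bases GGGAATTTCCC, is a κB-type element, and it is in capitals. The sequences run 5′ to 3′ on the plus strand from 120 to 31 bases before the RefSeq start, at chr5:90891125-90891214 for Cxcl1, chr5:90903779-90903868 for Cxcl2 and chr5:90785981-90786070 for Cxcl3.
Cxcl1: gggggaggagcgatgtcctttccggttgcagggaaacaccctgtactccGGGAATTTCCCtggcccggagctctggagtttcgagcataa
Cxcl2: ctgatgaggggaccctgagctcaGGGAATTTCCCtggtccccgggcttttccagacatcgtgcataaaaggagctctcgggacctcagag
Cxcl3: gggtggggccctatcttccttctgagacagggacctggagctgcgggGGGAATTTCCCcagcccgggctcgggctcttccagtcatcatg

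The element began at position -71 in Cxcl1, counted from the start, at position -97 in Cxcl2 and at position -73 in Cxcl3. Searched on both strands from 250 bases before to 50 bases after the start, these letters were in 14 of 32544 promoters (0.043%), and in neither the Cx3cl1 nor the Ccl20 promoter. Only these exact letters were searched, so κB-type elements of other letters may be present in either. The run was taken from these promoters, so its presence in them is a description. An AP-1 motif (TGANTCA, in 7.79% of promoters) was not in any of the 5 promoters.

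Depth was between 3417167 and 7856830 counts per library, so that 3 counts corresponded to 0.368 to 1.03 CPM, counts scaled to a common library size. DMSO replicate 3 and IFNγ replicate 2 stood apart. They had the highest shares of Gm42418, a locus that overlaps ribosomal RNA sequence (20.1% and 23.0% of counts, against 7.11% to 16.2% in the other libraries), and the largest root mean square deviations from the other libraries of their conditions (1.10 and 1.13 log2 units, against 0.34 to 0.77). Tested differences of the chemokines that rest on them are therefore given with and without both. The 2 libraries were picked from these same data, and leaving them out leaves 2 libraries each of DMSO and IFNγ. IFNγ raised Irf1, a transcription factor of the interferon response, by 5.05 ± 0.31 log2 units (SE, adjusted p = 3.52e-08) and Cxcl10 by 7.48 ± 0.47 (adjusted p = 3.52e-08), and both stayed called without the 2 libraries (5.03 and 7.95). IFNγ replicate 2 showed both, with 408 CPM of Irf1 where the DMSO libraries had 11.4 to 23.3 CPM. Epithelial markers summed to between 1060 and 2022 CPM, with 1655 to 2022 CPM in DMSO libraries and 1076 to 1116 CPM in A-241 libraries. With A-241, Krt14 (-1.50 ± 0.26, adjusted p = 0.00175) and Krt18 (-0.84 ± 0.15, adjusted p = 0.00186) were called lower, 2 of 8 tested, where 3.53% of genes were. The part of this in the A-241 results was not tested. Leukocyte markers summed to between 33.0 and 638 CPM, mostly S100a8 and S100a9. Ptprc, Itgam and Cd14 had condition means of up to 7.88, 3.47 and 10.3 CPM. The macrophage marker Adgre1 had 0 counts throughout and Csf1r at most 2 counts in a library. The sums were 227 to 638 CPM in A-485 libraries, all above DMSO (36.4 to 224 CPM) and A-241 libraries (125 to 209 CPM). Conditions with IFNγ overlapped. With all libraries 0 of 6 tested leukocyte markers were called for A-485 against DMSO or A-241 against A-485. The part of this imbalance in the A-485 results was not tested. Fibroblast and endothelial markers reached at most 4.48 and 4.12 CPM in sum, and the fibroblast marker Pdgfra was lower with A-241 (-3.49 ± 0.78, adjusted p = 0.00947). These 3 marker calls held without the 2 libraries, where the leukocyte marker Cd14 was also lower with A-241 (-1.50 ± 0.29, adjusted p = 0.00133). In bulk RNA fewer producing cells and less RNA per cell cannot be told apart.

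Of the 9 chemokines, 6 passed the filter on low counts and were tested among 11964 genes. Cxcl5 gave the most reads of the 9 (4133 counts over the 18 libraries), followed by Cx3cl1 (2308), Cxcl1 (612), Cxcl16 (406), Cxcl2 (176) and Ccl2 (104). Ccl7 had 18 counts in all, Ccl20 had 1 and Cxcl3 had 0, and these were not tested. No stretch of 75 bases in the last 500 bases of any of the 9 transcripts was shared with another gene.

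**Figure D1:**
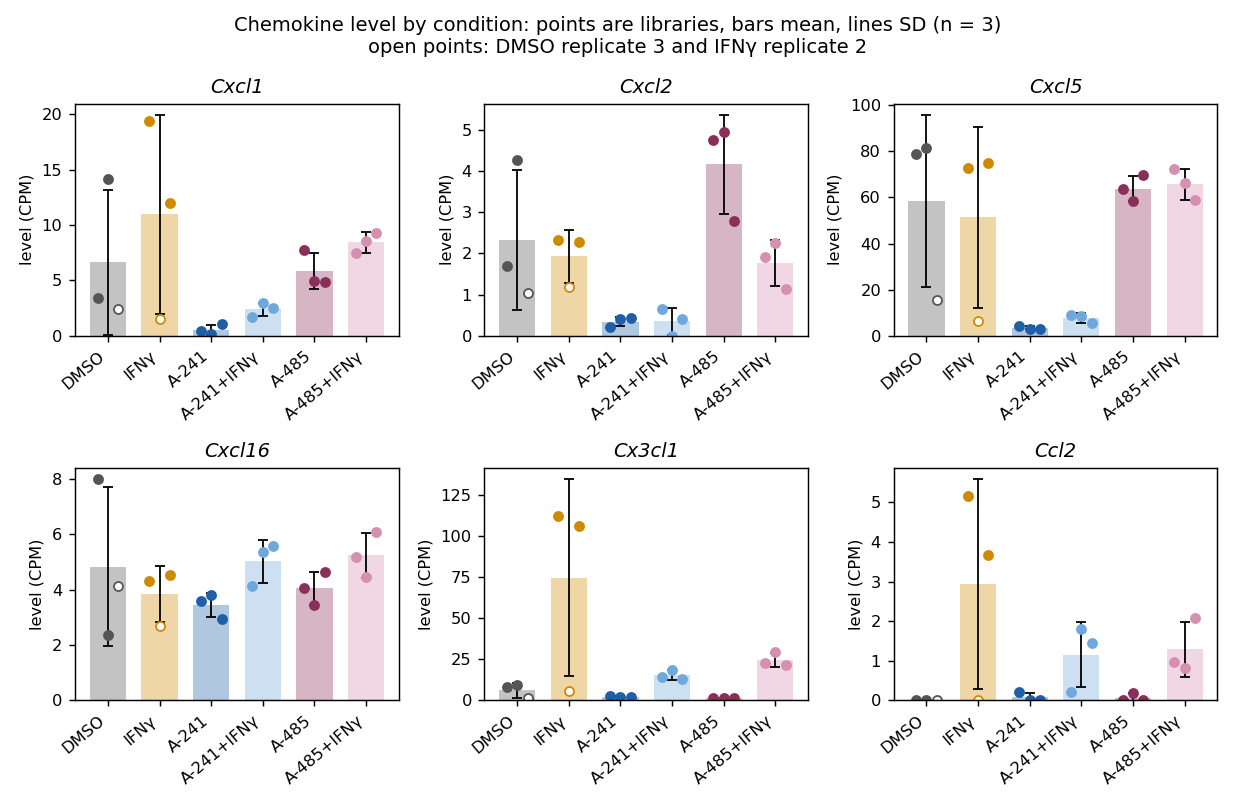
Levels of the 6 tested chemokines in CPM (vertical axes, linear) in each condition, where points are libraries, bars the mean and lines the SD of 3 libraries, and open points are DMSO replicate 3 and IFNγ replicate 2. The Cxcl5 points with A-241 lie between 3.00 and 4.20 CPM, below all DMSO and A-485 points.

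A-241 lowered the neutrophil chemokine Cxcl5 by 17.1-fold, and the same treatment gave Cxcl1 and Cxcl2 levels below every DMSO library, whereas Cxcl5 with A-485 stayed within the range of the DMSO libraries. Cxcl5 was 78.7, 81.4 and 15.5 CPM in the DMSO libraries and 4.20, 3.00 and 3.15 CPM with A-241. All A-241 libraries were below all DMSO libraries, and the lowest DMSO value was that of replicate 3. The log2 fold change was -4.09 ± 0.72 (SE, 95% interval -5.63 to -2.56, edgeR adjusted p = 0.00175). Cxcl5 was the 1 of 6 tested chemokines called lower at an adjusted p under 0.01, where 3.53% of all genes tested were called lower. Without DMSO replicate 3 and IFNγ replicate 2 the change was -4.57 ± 0.19 (adjusted p = 2.01e-11), and over 10 alternative settings, apart from those that leave out 1 library, the adjusted p lay between 3.83e-18 and 0.0326. With any single A-241 library left out the call was lost, with an adjusted p of at most 0.0149 and a log2 fold change between -4.52 and -3.78 over all 6 libraries left out in turn.

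Cxcl1, which like Cxcl5 signals through CXCR2, was 3.37, 14.2 and 2.41 CPM with DMSO and 0.420, 0.200 and 1.05 CPM with A-241. Cxcl2 was 1.68, 4.25 and 1.03 CPM with DMSO and 0.210, 0.400 and 0.420 CPM with A-241. The groups did not overlap for either gene, and these 2 with Cxcl5 make 3 of 6 chemokines whose A-241 libraries were all below DMSO, where 13.4% of genes tested showed this. That share is not given for the other comparisons, where a lack of overlap only describes the libraries. The A-241 counts were few for both genes, at 8 in all for Cxcl1 and 5 for Cxcl2. With all libraries the log2 fold changes were -3.62 ± 0.89 for Cxcl1 (adjusted p = 0.0167) and -2.78 ± 0.69 for Cxcl2 (adjusted p = 0.0170), neither of which passed the threshold. Cxcl1 without the 2 libraries that stood apart was called at -4.02 ± 0.60 (adjusted p = 0.000115, with a range of 1.01e-07 to 0.137 over 8 alternatives). Cxcl2 was then called at -3.11 ± 0.65 (adjusted p = 0.00250, range 0.000642 to 0.0544). DMSO replicate 2, the highest DMSO library for both genes, bore on both values. Without it alone the change was -2.37 for Cxcl1 (adjusted p = 0.114) and -1.96 for Cxcl2 (adjusted p = 0.108). Without DMSO replicate 2 alone 1 of 6 chemokines was called lower with A-241, where 3.29% of genes were. Without the 2 libraries that stood apart Cx3cl1 was also called, so that 4 of 6 were lower, where 6.52% of genes were. Over the 6 chemokines the median log2 fold change with all libraries was -2.21, against 0.01 over all genes tested.

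With A-485 alone none of the CXCR2 ligands passed the threshold. Cxcl5 was 63.7, 58.3 and 69.5 CPM with A-485, above DMSO replicate 3 and below the other DMSO libraries, a log2 difference from DMSO of 0.11 with a 95% interval of -1.14 to 1.36. Leaving out the 2 libraries that stood apart made it -0.36 (interval -0.67 to -0.05, adjusted p = 0.214, range over 10 alternatives 0.214 to 1.00). Cxcl1 was 7.75, 4.95 and 4.87 CPM, within the DMSO values, a difference of -0.26 (interval -1.63 to 1.10) with all libraries and -0.65 (-1.51 to 0.21) without the 2. Cxcl2 was 4.75, 4.95 and 2.78 CPM, with 2 of 3 libraries above every DMSO library, a difference of 0.74 (interval -0.29 to 1.76) with all libraries and 0.42 (-0.48 to 1.33) without the 2. In edgeR 0 of 6 chemokines were called between A-485 and DMSO, where 0.660% of genes were. At an unadjusted p under 0.05 there was 1, Cx3cl1, and DESeq2 and limma-voom each called 0. The share of all genes at an unadjusted p under 0.05 is not given here, so counts at that threshold have no background.

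The same direction was seen in cells that also received IFNγ. Cxcl5 was 72.8, 6.24 and 74.8 CPM with IFNγ and 9.12, 8.62 and 5.35 CPM with A-241+IFNγ. The groups overlapped only through IFNγ replicate 2, which lay far below the other IFNγ libraries. With all libraries the log2 fold change was -2.75 ± 0.66 (adjusted p = 0.0150), and without the 2 libraries that stood apart it was called at -3.26 ± 0.17 (adjusted p = 1.67e-10, range over 10 alternatives 6.50e-15 to 0.168). Cxcl1 was 19.4, 1.49 and 12.0 CPM with IFNγ and 1.74, 2.93 and 2.47 CPM with A-241+IFNγ, again with IFNγ replicate 2 the lowest of its group. Its change was -2.24 ± 0.69 (adjusted p = 0.0583) with all libraries and was called at -2.71 ± 0.43 (adjusted p = 0.000199, range 2.18e-05 to 0.238) without the 2. Cxcl2 was 2.33, 1.19 and 2.27 CPM with IFNγ and 0.651, 0 and 0.412 CPM with A-241+IFNγ, with no overlap. Its change was -2.54 ± 0.70 (adjusted p = 0.0328) with all libraries and was called at -2.75 ± 0.66 (adjusted p = 0.00747, range 0.00747 to 0.0552) without the 2.

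In edgeR 0 of 6 chemokines were called between A-241+IFNγ and IFNγ with all libraries, where 4.09% of genes were. At an unadjusted p under 0.05 there were 4. DESeq2 called 1 lower, where 5.08% of genes were, and limma-voom called 0. With the 2 libraries left out 4 of 6 were called lower, namely Cxcl1, Cxcl2, Cxcl5 and Cx3cl1, where 5.88% of genes were. The median over the 6 chemokines was -2.27 with all libraries, against -0.02 over all genes.

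IFNγ itself changed none of the CXCR2 ligands past the threshold. The log2 difference between IFNγ and DMSO was -0.19 for Cxcl5 (95% interval -1.43 to 1.06), 0.69 for Cxcl1 (-0.61 to 2.00) and -0.31 for Cxcl2 (-1.40 to 0.77). Without the 2 libraries the differences were -0.13 (interval -0.47 to 0.21), 0.79 (-0.05 to 1.63) and -0.42 (-1.45 to 0.60). In cells held in A-241, IFNγ left Cxcl5 2.23-fold above A-241 alone with no overlap between the groups, but the log2 difference of 1.16 ± 0.74 was not called (adjusted p = 1.00), nor was that of Cxcl1, 2.08 ± 1.00 (adjusted p = 1.00). Without the 2 libraries the Cxcl5 difference was 1.18 ± 0.23 (adjusted p = 0.0108, the lowest of 10 alternatives, the highest being 1.00). In cells held in A-485, Cxcl2 was 1.91, 2.24 and 1.14 CPM with IFNγ, all below the A-485 libraries, a log2 difference of -1.25 ± 0.50 (adjusted p = 0.609).

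**Figure D2:**
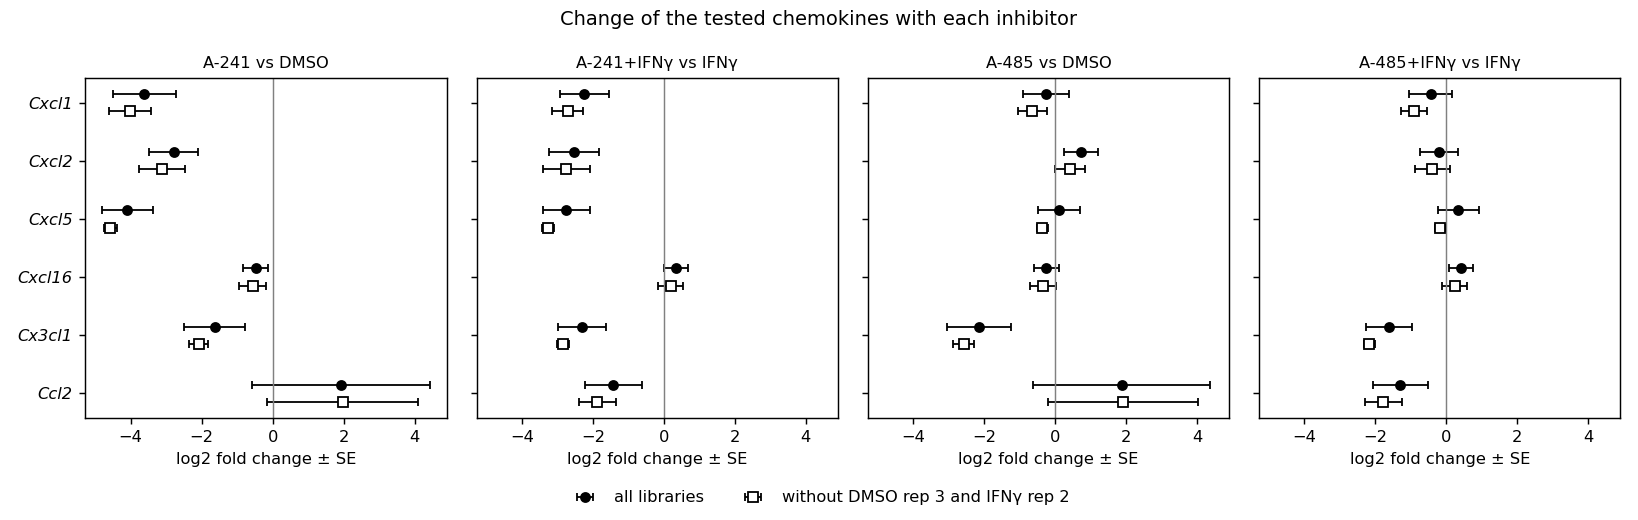
Log2 fold change ± SE (horizontal axes) of the 6 tested chemokines with each inhibitor, against DMSO or, with IFNγ present, against IFNγ, with all libraries (filled circles) and without DMSO replicate 3 and IFNγ replicate 2 (open squares). Cxcl5 moves from -4.09 to -4.57 with A-241 when the 2 libraries are left out, and the SE narrows from 0.72 to 0.19.

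Cx3cl1, the membrane-anchored chemokine bound by CX3CR1 on monocytes and NK cells, had the widest range of means of the 5 tested chemokines with counts in every condition, 51.2-fold between A-485 and IFNγ. It was 7.78, 9.29 and 1.03 CPM with DMSO and 112, 5.35 and 106 CPM with IFNγ. The low values were DMSO replicate 3 and IFNγ replicate 2, and the groups overlapped only through the latter. The log2 fold change was 3.54 ± 0.73 (adjusted p = 0.0124), just short of the threshold. Without the 2 libraries it was called at 3.65 ± 0.21, 12.6-fold higher with IFNγ (adjusted p = 5.42e-10, range over 9 alternatives 9.74e-16 to 0.852).

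In cells treated with either inhibitor all IFNγ libraries were also above those without IFNγ. With A-241 it was 2.73, 1.80 and 1.68 CPM without IFNγ and 14.3, 18.4 and 13.0 CPM with it, a difference of 2.87 ± 0.82 (adjusted p = 0.369). With A-485 it was 1.41, 1.33 and 1.62 CPM without IFNγ and 22.5, 29.5 and 21.2 CPM with it, a difference of 4.05 ± 0.85 (adjusted p = 0.0220). None of these 4 conditions contains a library that stood apart, but all share the estimate of spread with those that do. Both were called without those 2 libraries, at 2.89 ± 0.23 (adjusted p = 2.68e-07, range over 9 alternatives 1.11e-09 to 1.00) and 4.06 ± 0.24 (adjusted p = 1.01e-09, range 1.69e-13 to 0.494). Cx3cl1 was then the 1 of 6 chemokines called higher in each, where 0.437% of genes were with A-241 and 1.40% with A-485.

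With either inhibitor the Cx3cl1 means were lower than without it, by differences that edgeR did not call with all libraries and no further covariate. Against IFNγ the log2 difference was -2.30 ± 0.67 with A-241+IFNγ (adjusted p = 0.0462) and -1.62 ± 0.65 with A-485+IFNγ (adjusted p = 0.257). Without the 2 libraries both were called, at -2.84 ± 0.17 (adjusted p = 6.24e-10, range over 9 alternatives 1.26e-14 to 0.337) and -2.17 ± 0.16 (adjusted p = 1.51e-07, range 6.76e-09 to 0.664). Against DMSO the difference was -1.63 ± 0.86 with A-241 (adjusted p = 0.270) and -2.14 ± 0.90 with A-485 (adjusted p = 0.330). These too were called without the 2 libraries, at -2.08 ± 0.27 (adjusted p = 2.38e-05, range over 9 alternatives 5.80e-06 to 0.629) and -2.58 ± 0.29 (adjusted p = 1.78e-05, range over 8 alternatives 1.20e-06 to 0.664). All 4 differences were also called with all libraries and 2 surrogate variables as covariates, and those against IFNγ without IFNγ replicate 2 alone (adjusted p = 4.50e-05 with A-241+IFNγ and 0.00200 with A-485+IFNγ). Without DMSO replicate 3 alone those against DMSO were not called (adjusted p = 0.185 and 0.245). Cx3cl1 was the 1 of 6 chemokines called lower with A-485 without the 2 libraries, where 2.28% of genes were called lower against DMSO and 2.37% against IFNγ.

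The order of Cx3cl1 means was A-485 (1.45 CPM), A-241 (2.07), DMSO (6.04), A-241+IFNγ (15.2), A-485+IFNγ (24.4) and IFNγ (74.5). Neighbours did not overlap except for A-241 with DMSO and A-485+IFNγ with IFNγ, and both overlaps came through DMSO replicate 3 or IFNγ replicate 2.

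Ccl2, the main monocyte attractant bound by CCR2, was found almost entirely in cells given IFNγ. It had 0, 0 and 0 counts with DMSO, and 42, 0 and 21 counts with IFNγ, the 0 being IFNγ replicate 2. With A-241 it had 1, 0 and 0 counts and with A-485 it had 0, 1 and 0 counts. With A-241+IFNγ it had 1, 11 and 7 counts and with A-485+IFNγ it had 5, 4 and 11 counts. The mean with IFNγ, 2.94 ± 2.65 CPM (SD, n = 3), was at least 2.84-fold higher than 3 counts in the least deep DMSO library. The edgeR adjusted p between IFNγ and DMSO was 0.0409 with all libraries and 0.000798 without the 2 that stood apart (range over 8 alternatives 0.000604 to 0.129). Of the 6 chemokines, edgeR called 0 between IFNγ and DMSO with all libraries, where 1.30% of genes were called. At an unadjusted p under 0.05 there were 2. DESeq2 called 2 higher, where 1.56% of genes were, and limma-voom called 0. Without the 2 libraries Cx3cl1 and Ccl2 were called higher, 2 of 6 where 1.62% of genes were.

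Summed over libraries, Ccl2 was 17.7 times higher with A-241+IFNγ than with A-241 (95% interval from counting error only 2.81 to 734) and 19.8 times higher with A-485+IFNγ than with A-485 (3.16 to 819). Both ratios rest on 1 count in the cells without IFNγ. Against IFNγ alone it was 3.00-fold lower with A-241+IFNγ (counting interval 1.77 to 5.31) and 2.82-fold lower with A-485+IFNγ (1.68 to 4.92). The model across libraries called neither, with log2 differences of -1.42 ± 0.79 (adjusted p = 0.345) and -1.30 ± 0.78 (adjusted p = 0.452). Leaving out the 2 libraries gave -1.88 ± 0.52 (adjusted p = 0.0211) and -1.78 ± 0.52 (adjusted p = 0.0426), short of the threshold. Its neighbour Ccl7, also a monocyte attractant, had 1, 3 and 1 counts with IFNγ, 0, 0 and 2 with A-241+IFNγ and 0, 2 and 9 with A-485+IFNγ. Its count was 0 in all 9 libraries without IFNγ, which allows up to 0.473 to 1.03 CPM in each. Here IFNγ replicate 2, which had 0 counts of Ccl2, had the highest count of its group.

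**Figure D3:**
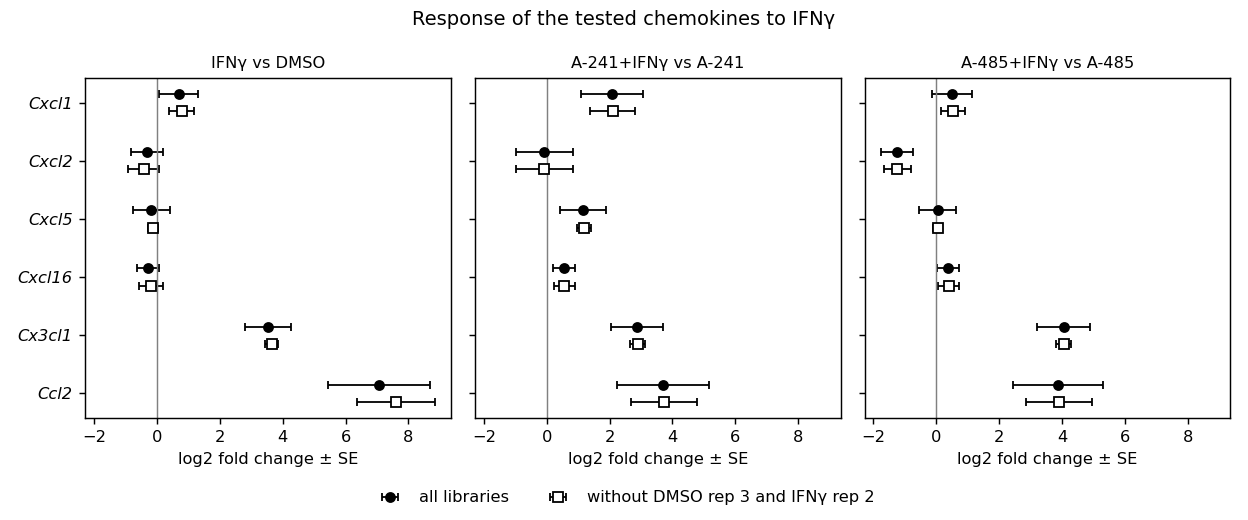
Log2 fold change ± SE (horizontal axes) of the 6 tested chemokines with IFNγ, in cells given vehicle, A-241 or A-485, with all libraries (filled circles) and without DMSO replicate 3 and IFNγ replicate 2 (open squares). Cx3cl1 lies at 3.54, 2.87 and 4.05 with all libraries, and the Ccl2 values are fitted against groups with 0 or 1 count.

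Cxcl16, the membrane-anchored ligand of CXCR6 and a scavenger receptor for oxidised lipoprotein, had means within 1.52-fold of each other in all conditions. Its libraries lay between 2.36 and 7.99 CPM, both extremes being DMSO libraries, and the highest mean, 5.23 ± 0.800 CPM with A-485+IFNγ (SD, n = 3), was above all others and the lowest was 3.44 ± 0.442 CPM with A-241. All neighbours in the order of means overlapped. Against DMSO the log2 difference was -0.28 with IFNγ (95% interval -1.03 to 0.46), -0.48 with A-241 (-1.24 to 0.29) and -0.25 ± 0.35 with A-485 (SE). These were -0.19, -0.56 and -0.34 without the 2 libraries, none of them called. With all libraries the largest difference in either direction among the 9 pairs of conditions compared was 0.55 ± 0.35, between A-241+IFNγ and A-241 (adjusted p = 1.00), where the groups did not overlap. Cxcl16 shares exon bases with Zmynd15, which had at most 1 count in a library.

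Cxcl3, the remaining CXCR2 ligand, had 0 counts in all 18 libraries, which allows a level of up to 0.0329 CPM over their summed depth, counting error only. Cxcl3 was thus not detectable at this depth, and its promoter holds the κB-type element printed for Cxcl1 and Cxcl2. Ccl20 had 1 count, in DMSO replicate 2, and 0 counts in the other libraries.

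Both inhibitors were also set against each other, at doses that differ (250 nM and 1000 nM), so that these are differences between treatments as given. Cxcl5 with A-241 differed from Cxcl5 with A-485 by -4.20 ± 0.73 log2 units (SE, 95% interval -5.74 to -2.66, adjusted p = 0.00862), an 18.4-fold difference. It was the 1 of 6 chemokines called lower, where 0.351% of genes were. The call was lost with any 1 of the 6 libraries left out (adjusted p 0.0222 to 0.0709, log2 fold change -4.37 to -4.11). Cxcl1 and Cxcl2 were below A-485 in all A-241 libraries, at -3.36 ± 0.91 (adjusted p = 0.121) and -3.52 ± 0.65 (adjusted p = 0.0145). Without DMSO replicate 3 and IFNγ replicate 2, 3 of 6 were called lower, where 1.48% of genes were, with Cxcl5 at -4.21 ± 0.19, Cxcl1 at -3.37 ± 0.61 and Cxcl2 at -3.53 ± 0.58. Cx3cl1 differed by 0.51, with an interval of -1.67 to 2.68 that holds differences in both directions.

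With IFNγ present, Cxcl5 differed between A-241+IFNγ and A-485+IFNγ by -3.09 ± 0.66 (adjusted p = 0.0332), with values of 72.2, 66.3 and 58.8 CPM with A-485+IFNγ and no overlap. In edgeR 0 of 6 chemokines were called, where 0.518% of genes were. At an unadjusted p under 0.05 there were 3. DESeq2 called 1 lower, where 0.903% of genes were, and limma-voom called 0. Without the 2 libraries Cxcl5 was called at -3.08 ± 0.16 (adjusted p = 7.26e-10, range over 10 alternatives 7.08e-15 to 0.153), the 1 of 6 called lower where 1.24% of genes were. Cx3cl1 differed by -0.68 ± 0.66 (interval -2.08 to 0.73), or -0.66 ± 0.16 without the 2 (adjusted p = 0.0345), and Ccl2 by -0.12 ± 0.89 (interval -2.02 to 1.78).

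The IFNγ response within each inhibitor was tested over the same genes. Between A-241+IFNγ and A-241 edgeR called 0 of 6 chemokines, where 0.192% of genes were called, with 2 at an unadjusted p under 0.05 and 0 by DESeq2 or limma-voom. Between A-485+IFNγ and A-485 it called 0 of 6, where 0.802% of genes were, with 3 at an unadjusted p under 0.05. DESeq2 called 1 higher there, where 1.08% of genes were, and limma-voom called 0. Between A-485+IFNγ and IFNγ edgeR called 0 of 6, where 0.552% of genes were, with 1 at an unadjusted p under 0.05 and 0 by DESeq2 or limma-voom. Whether an inhibitor altered the size of the IFNγ response was tested as an interaction. For A-241 0 of 6 were called (0.0334% of genes) and for A-485 0 of 6 (0 genes), with 0 at an unadjusted p under 0.05 and 0 by DESeq2 or limma-voom in either. For Cx3cl1 the response with A-241 minus that with vehicle was -0.67 (95% interval -3.03 to 1.69), and that with A-485 minus vehicle was 0.51 (-1.80 to 2.83). With both libraries left out 0 of 6 were called in either interaction (0.107% of genes lower and 0.0330% higher for A-241), and at an unadjusted p under 0.05 there were 2 for A-241 and 0 for A-485. The 2 were Cxcl5, whose response with A-241 minus that with vehicle was 1.31 (interval 0.72 to 1.89, adjusted p = 0.0518), and Cx3cl1 at -0.76 (interval -1.48 to -0.04, adjusted p = 0.520). The Cx3cl1 value for A-485 was then 0.41 (-0.29 to 1.12).

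**Figure D4:**
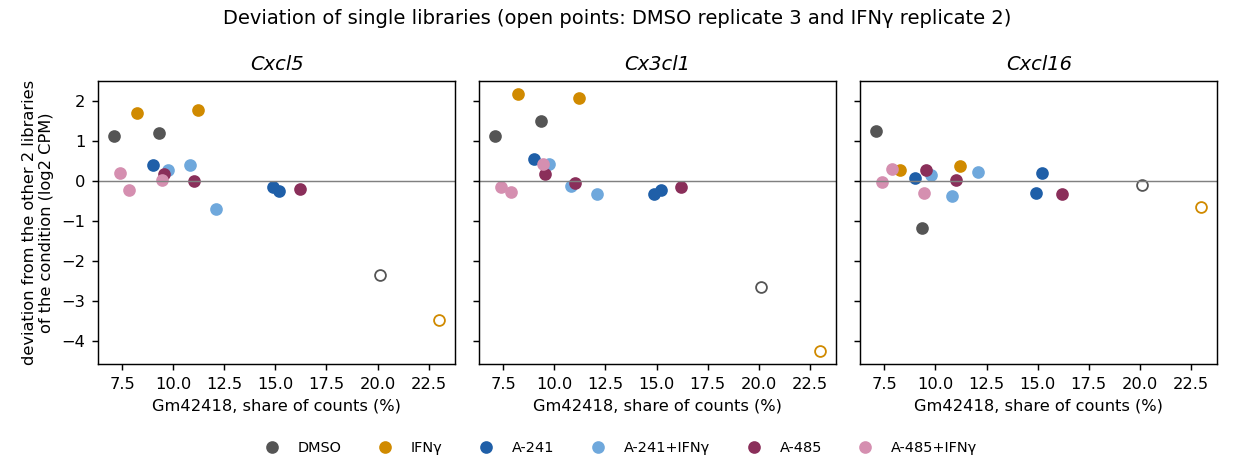
Deviation of each library from the mean of the other libraries of its condition (vertical axes, log2 CPM) against the share of its counts at Gm42418 (horizontal axes, percent), for Cxcl5, Cx3cl1 and Cxcl16, with DMSO replicate 3 and IFNγ replicate 2 as open points. Those points lie at -2.34 and -3.48 for Cxcl5, -2.64 and -4.25 for Cx3cl1, and -0.09 and -0.65 for Cxcl16.

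The libraries that stood apart did not depart alike for all members. DMSO replicate 3 was below the other DMSO libraries by -2.34 log2 units for Cxcl5, -2.64 for Cx3cl1, -1.40 for Cxcl1 and -1.12 for Cxcl2. IFNγ replicate 2 was below the other IFNγ libraries by -3.48 for Cxcl5, -4.25 for Cx3cl1, -3.06 for Cxcl1 and -3.60 for Ccl2. For Cxcl16 the values were -0.09 and -0.65. The highest summed leukocyte markers among the IFNγ libraries, 628 CPM, were also in IFNγ replicate 2. The part of these differences in the results was not tested beyond leaving out the libraries.

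The genes around these chemokines were taken from lists by role, and their values are those with all libraries unless stated. Of 11 receptors for the 9 chemokines, 9 had any count and 0 passed the filter, Cxcr2 having at most 7 counts in a library. Of 23 other chemokines, 15 had a count and 3 were tested. Cxcl12, the CXCR4 ligand, was lower with A-241 (-2.78 ± 0.50, adjusted p = 0.00182) and was the 1 called in any comparison. It was also called lower with A-485 once the 2 libraries were left out (-2.17 ± 0.45, adjusted p = 0.00636). The sheddases that free Cx3cl1 and Cxcl16, and their regulators (Adam10, Adam17, Rhbdf1 and Rhbdf2), were all tested and 0 of 4 were called by edgeR in any comparison, with or without the 2 libraries, the lowest adjusted p being 0.133, for Adam10.

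Of 12 myeloid cytokines and growth factors 4 were tested. Csf1, which sustains macrophages, was raised by IFNγ (0.98 ± 0.18, adjusted p = 0.00506) and lowered by A-241 against DMSO (-1.64 ± 0.20, adjusted p = 6.83e-05). It was also lower than with IFNγ in A-241+IFNγ (-1.63 ± 0.18, adjusted p = 2.82e-05) and A-485+IFNγ (-1.50 ± 0.18, adjusted p = 0.000555). Il34, the other ligand of the Csf1 receptor, was lower than DMSO with A-241 (-3.76 ± 0.58, adjusted p = 0.000536) and with A-485 (-3.04 ± 0.54, adjusted p = 0.00655). Unlike Cxcl5 and Cx3cl1, Il34 was highest of its group in DMSO replicate 3 (44.1 CPM) and in IFNγ replicate 2 (33.9 CPM). Without both it remained called, at -3.18 ± 0.33 with A-241 (adjusted p = 1.79e-06) and -2.46 ± 0.31 with A-485 (adjusted p = 6.71e-05). In A-241+IFNγ it was lower than with IFNγ by -2.52 ± 0.54 (adjusted p = 0.00732), or -1.70 ± 0.32 without both (adjusted p = 0.00111). Vegfa was lower with A-241+IFNγ than with IFNγ (-0.88 ± 0.18, adjusted p = 0.00626), so that 3 of 4 were called lower there, where 3.54% of genes were. Of the 8 calls in this list all 8 were kept without the 2 libraries, and 3 were gained, for Lif and Vegfa.

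Of 16 NF-κB pathway genes 13 were tested, and the calls were few and in nuclear cofactors. Bcl3, which binds NF-κB dimers on DNA, fell in cells given A-241 (log2 change -2.40 ± 0.35, adjusted p = 0.000289), with A-241+IFNγ against IFNγ (-2.75 ± 0.34, adjusted p = 7.01e-05) and against A-485+IFNγ (-2.05 ± 0.35, adjusted p = 0.00514). Nfkbiz, a cofactor for secondary NF-κB targets, was lower with A-241+IFNγ than with IFNγ (-1.45 ± 0.31, adjusted p = 0.00731). Thus 1 of 13 was called lower between A-241 and DMSO, where 3.53% of genes were. Between A-241+IFNγ and IFNγ 2 of 13 were called lower, where 3.54% of genes were. The medians of the 13 were -0.10 and 0.07. The subunit Rela was not called in any comparison (lowest adjusted p = 0.344), nor was the kinase Chuk (0.131). The 4 calls were kept and 4 were gained without the 2 libraries, among them Nfkbiz lower with A-241 than with DMSO (-1.18 ± 0.22, adjusted p = 0.00108).

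Of 10 AP-1 and C/EBP factors 9 were tested. Cebpb, a C/EBP factor of inflammatory gene expression, was lower with A-241 (-1.28 ± 0.20, adjusted p = 0.000490) and with A-241+IFNγ against IFNγ (-2.33 ± 0.20, adjusted p = 2.05e-06). It was also lower with A-485+IFNγ against IFNγ (-1.55 ± 0.20, adjusted p = 0.000570) and against A-485 (-1.08 ± 0.20, adjusted p = 0.00649). Jun rose with IFNγ (1.36 ± 0.13, adjusted p = 3.40e-06), as did Atf3 (1.80 ± 0.31, adjusted p = 0.00297). Both also rose with IFNγ in cells held in A-485 (1.17 ± 0.13, adjusted p = 4.98e-05, and 2.17 ± 0.33, adjusted p = 0.00145). Between A-241+IFNγ and IFNγ, Jun was lower (-0.67 ± 0.13, adjusted p = 0.00266) and Fos was higher (2.23 ± 0.36, adjusted p = 0.000753). The 10 calls in this list were kept and 14 were gained without the 2 libraries. Of 9 genes for the control of mRNA stability, among them regulators of AU-rich transcripts, a class that includes the CXCR2 ligand mRNAs, 8 were tested. Zfp36l1 was lower with A-241 (-1.91 ± 0.30, adjusted p = 0.000764), and so was Zfp36l2 (-1.50 ± 0.28, adjusted p = 0.00266), 2 of 8, where 3.53% of genes were. Zfp36l2 was also lower with A-241+IFNγ than with IFNγ (-2.02 ± 0.28, adjusted p = 0.000212), while Zfp36 (lowest adjusted p = 0.0749) and Elavl1 (0.264) were not called in any comparison. The 3 calls of this list were kept and 8 were gained without the 2 libraries, of which Zfp36 was higher with A-241+IFNγ than with A-241 (1.56 ± 0.29, adjusted p = 0.00940).

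The genes whose log2 CPM followed each chemokine most closely are given as a description, since all points share the 6 conditions and the same libraries. Over the 18 libraries, and among genes of at least 50 counts on average, the highest Pearson correlations with Cxcl1 were those of Gnl3 (0.91), Apobec3 (0.90) and Cxcl5 (0.89). Cxcl2 was most like Tfap4 (0.92), Tcim (0.88) and Gnl3 (0.85), and Cxcl5 most like Ppan, Zfp36l1 and Tcim (0.93 each). Cx3cl1 was most like Rnf122 (0.94), Stat3 (0.92) and Chsy1 (0.92), and Ccl2 most like Socs1 (0.89), Cx3cl1 (0.87) and Chsy1 (0.86). Cxcl16 had no partner above Galnt4 (0.81), followed by Map1lc3b (0.67) and Kidins220 (0.66).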

How the data were processed

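3′ mRNA libraries (QuantSeq kit, 75-base single-end reads) of AT3 cells were analysed from raw counts per gene, which the authors deposited for 18 libraries. Per the labels and methods, the authors demultiplexed with bcl2fastq 2.17.1.14, checked reads with FastQC 0.11.5, trimmed them with cutadapt 1.7, aligned them to GRCm38 with HISAT2 2.1.0 and counted exon reads with featureCounts, with reads on overlapping genes counted for each. The annotation release and the strand setting are not given in the sources used here. Identifiers were matched to GENCODE vM21 for 42548 of 43629 genes (97.5%), and the rest, with 0.403% of counts, stayed in.

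In R 4.3.3, genes were filtered with filterByExpr by condition (11964 kept) and scaled by TMM factors. All 18 libraries were then fitted together by condition in edgeR 4.0.16 (glmQLFit, glmQLFTest). The SE of a log2 fold change is its absolute value divided by the square root of the F statistic. Its 95% interval is built from that SE, so both are approximate, most of all near 0 and against groups at 0 counts. P values are two-sided and Benjamini-Hochberg adjusted over all genes tested, with calls at an adjusted p under 0.01. CPM use TMM-scaled totals, and log2 CPM a prior count of 2. Groups at 0 were set to 3 counts in their least deep library. Counting intervals are exact, at 95%, and cover counting error only. The comparisons, 11 in all, were 9 pairs of conditions and the interaction of each inhibitor with IFNγ. Alternatives used DESeq2 1.42.0, limma 3.58.1 and sva 3.50.0, other filters and scalings, a replicate block, and libraries left out. The method was also run on simulated counts in which no library stood apart, so that run does not cover the libraries that did here. Figures were drawn with matplotlib 3.10.9.

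The members and gene lists were chosen with earlier results of these data known. Named genes are the members, Irf1 and Cxcl10, the 3 genes most like each tested member, and up to 4 genes of each list with the lowest adjusted p. A further motif search in the promoters is not reported here.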

Additional observations from a re-analysis of the deposited data

How the results depend on the processing

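With all libraries, edgeR called 1 chemokine for A-241 against DMSO, 1 for A-241 against A-485 and 0 in the other 9 comparisons. Without DMSO replicate 3 and IFNγ replicate 2 it called 2 for IFNγ against DMSO, 4 for A-241 against DMSO, 1 for A-485 against DMSO, 3 for A-241 against A-485, 4 for A-241+IFNγ against IFNγ, and 1 each for A-485+IFNγ against IFNγ, A-241+IFNγ against A-485+IFNγ, and either inhibitor with IFNγ against that inhibitor. With 2 surrogate variables the counts were the same, with 2 exceptions. There were 2 lower for A-241+IFNγ against A-485+IFNγ (2.31% of genes lower). The interaction of A-241 with IFNγ had 1 higher, Cxcl5 (0.192% of genes higher). The share of all genes called rose as well, for A-241 against DMSO from 3.53% lower to 6.52% without the 2 libraries, 10.1% with 2 surrogate variables and 5.30% with DESeq2, and for A-241+IFNγ against IFNγ to 5.88%, 8.70% and 5.08%. For A-241 against A-485 it rose from 0.351% to 1.48%, 3.53% and 0.911%. DESeq2 called 2 for IFNγ against DMSO, 3 each for A-241 against DMSO and against A-485, and 1 each for A-241+IFNγ against IFNγ, A-241+IFNγ against A-485+IFNγ, and A-485+IFNγ against A-485. With no filter the counts were 2, 2, 2, 1, 1 and 1 in that order, where 1.76% of genes were lower for A-241 against DMSO. At an adjusted p under 0.05 they were 2, 3, 2, 3, 1 and 1. Limma-voom called 0 for A-241 against DMSO and against A-485. With only the groups compared 0 were called for IFNγ against DMSO, A-241 against DMSO (0.667% of genes lower) and A-241+IFNγ against IFNγ. The counts were 3 lower for A-241 against A-485 (1.00% of genes lower) and 2 lower for A-241+IFNγ against A-485+IFNγ (1.24%). There was 1 higher for A-241+IFNγ against A-241 (0.361% of genes higher) and 1 for A-485+IFNγ against A-485 (1.38%). For A-241 against A-485, 0 were called with total counts as the scale, where 0.217% of genes were lower. With at least 10 counts in every library, a filter that left only Cxcl5, 0 were called there, where 0.342% of genes were lower.

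With 1 replicate left out in turn the counts ranged from 0 to 2 for IFNγ against DMSO, 0 to 3 for A-241 against DMSO, 0 to 0 for A-241 against A-485, 0 to 3 for A-241+IFNγ against IFNγ and 0 to 1 for A-485+IFNγ against IFNγ. IFNγ replicate 2 gave the higher counts against IFNγ and DMSO replicate 3 that of A-241 against DMSO. Over these fits 0.828% to 1.36% of genes were higher for IFNγ against DMSO. For A-241, 1.83% to 3.29% were lower against DMSO and 0.147% to 0.213% against A-485. Against IFNγ, 1.91% to 3.52% were lower with A-241+IFNγ and 0.139% to 0.615% with A-485+IFNγ. Among single values 74 gained a call, 15 lost one and 0 that were called changed sign. The cause of these changes was not tested.

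Replicate numbers showed no uniform pairing of the libraries. Same-numbered libraries correlated between -0.80 and 0.48 in their deviations, 15 of 45 pairs were over 0.1, and 5 of 18 libraries were closest to their own number. In 2 of 15 pairs of conditions all 3 same-numbered pairs were over 0.1. The values of -0.80 and -0.70, between DMSO and IFNγ, each involve a library that stood apart. The replicate block gave 1 for A-241 against DMSO (2.95% of genes lower) and 0 for A-241 against A-485 (0.234%). Cxcl3, Ccl20 and Ccl7 (0, 1 and 18 counts) did not pass the filter on low counts, and Cxcl1, Cxcl2 and Ccl2 had lowest groups of 8, 5 and 0 counts.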
